A study of Mus musculus with 8 samples.

Results

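Haploid male germ cells at the round spermatid stage express many transcripts whose symbol is a clone or prediction name. In mouse these symbols end in Rik, for a cDNA of the RIKEN clone collection, or consist of Gm and a number, for a predicted gene. A group of 37 such loci was lower in round spermatids without a wild-type allele of Miwi (Piwil1). The members were chosen by their measured values: the mean log2 intensity of the 4 arrays without a wild-type allele lay at least 1 below that of the 4 arrays with one, and the 2 sets of arrays did not overlap. They are 37 of 1225 measured loci with such symbols and of 19938 measured genes, of which 288 (1.44%) met the same 2 conditions. Because this contrast chose them, the difference without against with a wild-type allele is given as a description and not as a test.

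The arrays measured total RNA of round spermatids purified on an albumin gradient from testes of adult C57BL/6 mice, with 2 arrays per genotype labelled as biological replicates. The genotypes were MIWI -/-, with null alleles only, MIWI -/KI, with a null and a knock-in allele, MIWI +/KI, in which the knock-in stands beside a wild-type allele, and MIWI +/-, with a wild-type and a null allele. Every array thus came from mice with at least 1 altered allele, and the knock-in allele is not described further in the labels, although the series concerns the catalytic activity of MIWI. Round spermatids were pooled from gradient fractions for each RNA extraction. No label says whether an array stands for 1 animal, and p-values therefore cover only the variation among these RNA preparations, which may be technical.

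MIWI is a PIWI protein found from the pachytene stage of meiosis to round spermatids, where it binds piRNAs, small RNAs that guide PIWI proteins to transposon and other transcripts. Its loss in mice is known to stop sperm formation at the round spermatid stage. Round spermatids transcribe a large haploid programme, much of it driven by the transcription factor CREM, which binds the cAMP response element (CRE), before the chromatin is compacted. RIKEN symbols that share their first 4 digits with 1700012A03Rik, 4921507P07Rik, 4930412O13Rik or 4933402N03Rik come from cDNA libraries of adult mouse testis.

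Values are summarised array intensities on a linear scale, with array medians between 66.6 and 71.8. Across transcript clusters (the sets of probes that the platform assigns to 1 transcript region), Pearson's r of log2 values was 0.970 to 0.995 within a genotype and 0.960 to 0.988 across genotypes, lowest within a genotype for the MIWI -/KI pair. The 20 round spermatid markers measured had intensities between 295.6 and 4981 on all arrays, all above these medians. Over all genes, limma called 3.93% lower and 4.33% higher without a wild-type allele. Of the 20 round spermatid markers, 3 (Hspa1l at -1.69, Gapdhs at -1.30 and Tssk2 at -0.83 on the log2 scale) were called lower and 0 higher without a wild-type allele by limma (5 and 3 at an unadjusted p under 0.05). Their summed intensity was 31267 and 30605 in MIWI -/-, 32561 and 31163 in MIWI -/KI, 35072 and 33164 in MIWI +/KI and 36544 and 36436 in MIWI +/-, with no overlap between arrays without and with a wild-type allele. The sums weigh bright genes most, such as Gapdhs, which ranged from 1483 to 4860. The median log2 difference of the 20 was 0.06, and only 8 of 20 lay below 0. Of 18 Sertoli cell markers, 4 (Aard, Defb19, Wt1 and Tsx) were called lower and 0 higher without a wild-type allele by limma (10 and 0 at an unadjusted p under 0.05), and their summed intensity was 2195 and 1766 in MIWI -/-, 2064 and 1666 in MIWI -/KI, 2391 and 2874 in MIWI +/KI and 3223 and 3023 in MIWI +/-. The lowest of these was at 28.5. Of 11 blood and macrophage markers 4 (Aif1, Alas2, H2-Aa and Cd74) were called lower and 0 higher (5 and 1 at an unadjusted p under 0.05). The median log2 difference of the 11 was -0.02, with 6 of 11 below 0. Aif1 had intensities of 732 to 1680 and the other markers of this list 40.5 to 132, so Aif1 dominated the sums. The sums of the 11 were 1590 and 1583 in MIWI -/-, 1710 and 1565 in MIWI -/KI, 1970 and 1865 in MIWI +/KI and 2612 and 2463 in MIWI +/-. In the other direction, 3 of 19 spermatocyte markers (Tex101, Piwil2 and Nek2) were called higher and 1 (Syce2) lower (6 and 1 at an unadjusted p under 0.05). The sums of the 19 were 17036 and 14089 in MIWI -/-, 15161 and 17114 in MIWI -/KI, 12237 and 12675 in MIWI +/KI and 13773 and 12879 in MIWI +/-. Of 7 Leydig cell markers 0 were called by limma, but 4 were higher and 0 lower at an unadjusted p under 0.05, with sums of 1106 and 538 in MIWI -/-, 836 and 795 in MIWI -/KI, 433 and 576 in MIWI +/KI and 598 and 480 in MIWI +/-. Of 15 spermatogonia markers 1 (Lin28a) was called higher and 0 lower (2 and 1 at an unadjusted p under 0.05). The part of these shifts in the results was not tested. Piwil1 itself had an intensity of 196 and 151 in MIWI -/-, 672 and 696 in MIWI -/KI, 680 and 749 in MIWI +/KI and 389 and 371 in MIWI +/-.

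By RefSeq annotation of mouse assembly GRCm38.p6, which matched 36 of the 37 by Entrez ID, 26 of the members (70.3%) were protein-coding genes, 7 (18.9%) lncRNA genes and 3 (8.11%) transcribed pseudogenes. Among all 1225 loci with such symbols, 494 (40.3%) were protein-coding, 539 (44%) lncRNA genes and 73 (5.96%) transcribed pseudogenes. Symbols of the 4 testis libraries made up 27 of 37 members (73.0%), against 283 of 1225 loci (23.1%). To meet the rule a locus needs signal on the arrays with a wild-type allele, while the 1225 loci include dim ones. Shares among loci of like intensity were not examined. Whether the differences in annotation and library follow from the rule alone was not tested. None had received another symbol in the RefSeq table, but some carried synonyms. 1110017D15Rik is listed as Cbe1 and Smrp1, 4921507P07Rik as TISP74 and 5031439G07Rik as mKIAA0930. The synonyms of 4930503B20Rik include Samd13, and those of Gm609 include isec1. Some of the 37 loci thus have a gene name besides their clone or prediction symbol.

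RefSeq promoter windows, from 250 bases before to 50 bases after an annotated transcript start, were used for 25 of the members. Member windows on a chromosome left out beforehand were not counted, while the sets of all windows given below kept that chromosome. Below are 3 windows of loci with large differences between genotypes (1700012A03Rik, chr6:32050038-32050337, plus strand; Gm136, chr4:34756210-34756509, minus strand; 1700008P02Rik, chr3:6620394-6620693, minus strand), followed by 3 windows with CRE letters close to the start (4930412O13Rik, chr2:9880996-9881295, plus strand; 4921507P07Rik, chr6:50596541-50596840, minus strand; Gm11780, chr4:4529409-4529708, minus strand). All are in GRCm38.p6, written 5′ to 3′ on the strand of the gene, with the letters TGACG or their complement CGTCA in capitals.
1700012A03Rik: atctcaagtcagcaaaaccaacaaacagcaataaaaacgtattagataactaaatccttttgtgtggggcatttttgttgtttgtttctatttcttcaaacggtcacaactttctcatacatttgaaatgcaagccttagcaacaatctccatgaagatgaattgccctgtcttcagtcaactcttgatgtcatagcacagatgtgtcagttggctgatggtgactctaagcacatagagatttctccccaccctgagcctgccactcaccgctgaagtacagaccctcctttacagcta
Gm136: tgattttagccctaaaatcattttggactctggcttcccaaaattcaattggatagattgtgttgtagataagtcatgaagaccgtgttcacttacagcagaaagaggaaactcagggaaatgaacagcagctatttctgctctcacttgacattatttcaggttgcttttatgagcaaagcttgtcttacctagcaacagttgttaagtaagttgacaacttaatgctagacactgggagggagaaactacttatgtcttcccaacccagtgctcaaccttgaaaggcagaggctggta
1700008P02Rik: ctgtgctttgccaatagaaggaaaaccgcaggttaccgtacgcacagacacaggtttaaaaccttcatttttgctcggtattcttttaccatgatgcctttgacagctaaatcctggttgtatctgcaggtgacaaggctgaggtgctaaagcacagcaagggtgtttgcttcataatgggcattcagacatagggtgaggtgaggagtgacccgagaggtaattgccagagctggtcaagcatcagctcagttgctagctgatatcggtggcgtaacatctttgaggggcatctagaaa
4930412O13Rik: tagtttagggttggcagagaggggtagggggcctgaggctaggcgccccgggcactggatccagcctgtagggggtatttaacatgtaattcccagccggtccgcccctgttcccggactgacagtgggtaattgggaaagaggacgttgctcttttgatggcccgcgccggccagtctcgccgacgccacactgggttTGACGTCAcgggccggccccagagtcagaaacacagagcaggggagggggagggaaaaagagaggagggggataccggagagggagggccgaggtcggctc
4921507P07Rik: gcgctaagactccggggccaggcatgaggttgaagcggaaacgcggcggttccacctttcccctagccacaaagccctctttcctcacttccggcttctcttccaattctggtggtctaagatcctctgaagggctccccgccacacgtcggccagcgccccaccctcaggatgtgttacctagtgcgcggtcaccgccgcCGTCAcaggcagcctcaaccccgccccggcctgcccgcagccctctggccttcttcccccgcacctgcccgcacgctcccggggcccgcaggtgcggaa
Gm11780: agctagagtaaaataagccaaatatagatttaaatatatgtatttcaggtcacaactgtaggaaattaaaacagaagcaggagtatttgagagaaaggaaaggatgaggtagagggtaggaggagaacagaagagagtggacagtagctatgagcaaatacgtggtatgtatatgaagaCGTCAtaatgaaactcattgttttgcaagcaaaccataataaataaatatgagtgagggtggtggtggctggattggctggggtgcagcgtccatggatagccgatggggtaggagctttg

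The full CRE, TGACGTCA, stood in 1 of the 31 member windows (3.23%), that of 4930412O13Rik, against 588 of 32851 windows over all RefSeq genes (1.79%) and 454 of 19115 windows of genes on the array (2.38%). Its core TGACG, searched on both strands and contained in the full element, stood in 7 windows (22.6%) of 6 members, against 6837 windows in all (20.8%). For the core, the members' share was close to that of all windows. In the 7 windows the core began between 71 and 26 bases before the start. Among all windows, 1901 (5.79%) held it in that stretch, which was chosen after the positions in the members were seen. No CRE letters were in the windows of 1700012A03Rik, Gm136 or 1700008P02Rik, which says only that these letters are not there.

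The 37 loci differed widely in level and in how far they fell. Their mean intensity ranged from 26.9 to 1479 without a wild-type allele (median 139), and from 67.8 to 3695 with one (median 757). Over the members the difference without minus with a wild-type allele had a median of -1.80 on the log2 scale, 3.47-fold, and ran from -4.16 to -1.04. It was at least 4-fold for 13 loci and at least 8-fold for 5. Most were lower rather than lost: 26 of the 37 stayed above the array median on all 4 arrays without a wild-type allele, and 5 lay below it on all 4. In these bulk samples, fewer cells that carry a transcript and less of it per cell cannot be told apart.

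**Figure D1:**
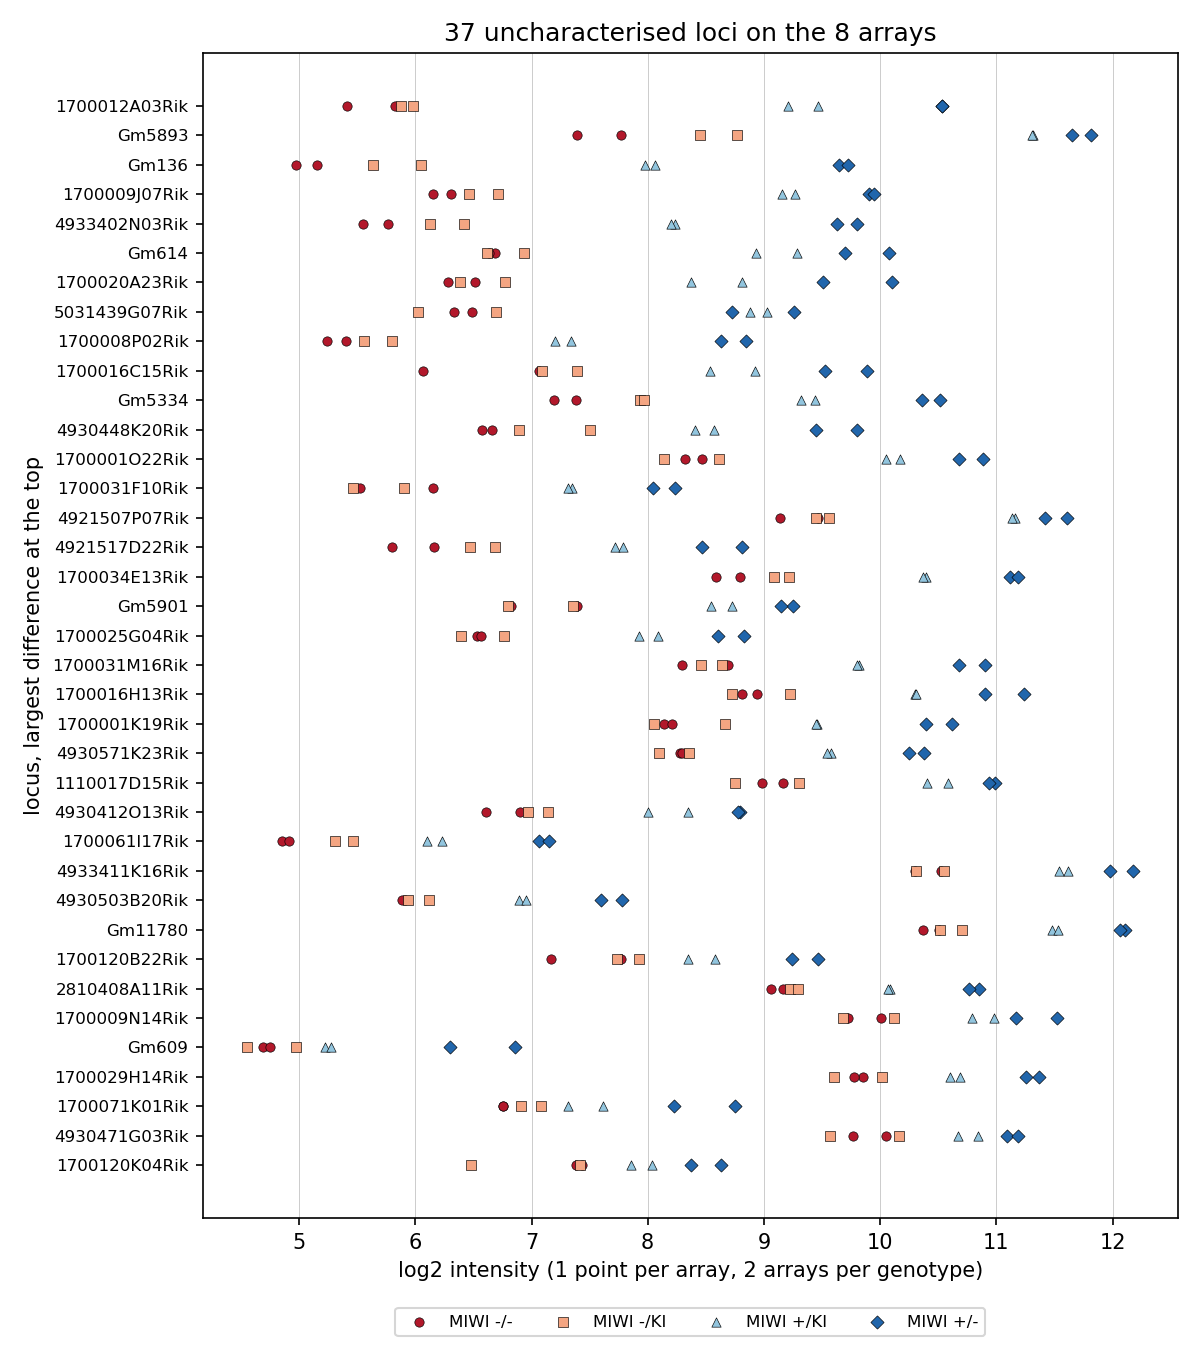
Log2 intensity of the 37 uncharacterised loci (rows, largest difference at the top), with 1 point for each of the 8 arrays and a colour and symbol for each genotype. MIWI +/- points lie farthest right in nearly every row and the arrays without a wild-type allele to the left, with MIWI +/KI between them.

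The largest difference was in the protein-coding locus 1700012A03Rik (transcript cluster 10537098). It had an intensity of 56.6 and 42.7 in MIWI -/-, 58.8 and 63.1 in MIWI -/KI, 706 and 590 in MIWI +/KI and 1480 and 1481 in MIWI +/-. The 4 arrays without a wild-type allele lay below the array medians, 17.9-fold under the others. The pseudogene Gm5893 (10550998) was among the brightest of the group with a wild-type allele. Its intensity was 168 and 219 in MIWI -/-, 349 and 435 in MIWI -/KI, 2548 and 2530 in MIWI +/KI and 3226 and 3598 in MIWI +/-. It stayed well above the array medians in every genotype, and each genotype occupied a range of its own. Whether its probes also detect a related gene was not examined.

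Gm136 (10511999, protein-coding) had an intensity of 35.5 and 31.4 in MIWI -/-, 49.7 and 66.3 in MIWI -/KI, 268 and 252 in MIWI +/KI and 801 and 846 in MIWI +/-. No 2 genotypes overlapped. The protein-coding 4933402N03Rik (10568496) had the same order, at 46.8 and 54.3 in MIWI -/-, 69.8 and 85.7 in MIWI -/KI, 302 and 294 in MIWI +/KI and 793 and 892 in MIWI +/-. The lncRNA 1700009J07Rik (10364331) stood at 71.3 and 79.4 in MIWI -/-, 105 and 88.1 in MIWI -/KI, 615 and 570 in MIWI +/KI and 959 and 987 in MIWI +/-. It was the lncRNA member with the largest difference, 8.93-fold.

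Among the next 5, MIWI -/- and MIWI -/KI overlapped in 3. Gm614 had an intensity of 103 and 99.4 in MIWI -/-, 122 and 98.3 in MIWI -/KI, 488 and 625 in MIWI +/KI and 1081 and 832 in MIWI +/-. 1700020A23Rik had 91.5 and 77.6 in MIWI -/-, 109 and 83.5 in MIWI -/KI, 449 and 331 in MIWI +/KI and 1100 and 728 in MIWI +/-. Both genes code for protein by annotation, and in both the MIWI -/- and MIWI -/KI arrays overlapped while the genotypes with a wild-type allele did not. 1700008P02Rik had 42.4 and 37.9 in MIWI -/-, 47.1 and 55.6 in MIWI -/KI, 162 and 147 in MIWI +/KI and 397 and 461 in MIWI +/-. 1700016C15Rik had 134 and 67.2 in MIWI -/-, 168 and 136 in MIWI -/KI, 485 and 371 in MIWI +/KI and 945 and 739 in MIWI +/-. No genotypes overlapped in either, although the MIWI -/- replicates of 1700016C15Rik stood far apart. 5031439G07Rik had 80.6 and 90.0 in MIWI -/-, 104 and 65.2 in MIWI -/KI, 523 and 471 in MIWI +/KI and 613 and 423 in MIWI +/-. It was the member of the 37 in which MIWI +/KI and MIWI +/- overlapped.

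The brightest of the remaining members kept much of their signal without a wild-type allele. 4933411K16Rik had an intensity of 1262 and 1468 in MIWI -/-, 1496 and 1269 in MIWI -/KI, 3141 and 2983 in MIWI +/KI and 4633 and 4024 in MIWI +/-. Gm11780 had 1325 and 1453 in MIWI -/-, 1465 and 1672 in MIWI -/KI, 2860 and 2955 in MIWI +/KI and 4400 and 4278 in MIWI +/-. Both were annotated as protein-coding, and both stayed above the highest array median on every array. 4921507P07Rik, whose synonym TISP74 stands for a transcript induced in spermiogenesis, had 564 and 706 in MIWI -/-, 756 and 698 in MIWI -/KI, 2290 and 2242 in MIWI +/KI and 3117 and 2737 in MIWI +/-. 1110017D15Rik, known as Smrp1 for a spermatid protein of the manchette, the microtubule skirt that shapes the nucleus, was not singled out by the naming rule and is given for its known role. It had 507 and 574 in MIWI -/-, 631 and 431 in MIWI -/KI, 1535 and 1354 in MIWI +/KI and 2034 and 1955 in MIWI +/-. In both loci MIWI +/KI lay below MIWI +/-, and MIWI -/KI replicate 2 of 1110017D15Rik was the lowest array.

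The pseudogenes and lncRNAs not yet described are given next, chosen by their annotation. The pseudogene Gm5334 had an intensity of 146 and 166 in MIWI -/-, 245 and 250 in MIWI -/KI, 695 and 640 in MIWI +/KI and 1311 and 1461 in MIWI +/-. The pseudogene 4930448K20Rik had 95.1 and 101 in MIWI -/-, 118 and 181 in MIWI -/KI, 381 and 340 in MIWI +/KI and 698 and 891 in MIWI +/-. In both pseudogenes no genotypes overlapped. The lncRNA 1700031M16Rik had 315 and 414 in MIWI -/-, 400 and 353 in MIWI -/KI, 904 and 892 in MIWI +/KI and 1640 and 1910 in MIWI +/-. The lncRNA 4930412O13Rik, with the full CRE above, had 97.4 and 119 in MIWI -/-, 141 and 125 in MIWI -/KI, 326 and 256 in MIWI +/KI and 444 and 440 in MIWI +/-. MIWI -/- and MIWI -/KI overlapped for 1700031M16Rik and not for 4930412O13Rik. The lncRNA 1700061I17Rik was dim, at 28.9 and 30.1 in MIWI -/-, 44.2 and 39.7 in MIWI -/KI, 75.1 and 68.8 in MIWI +/KI and 134 and 142 in MIWI +/-. The lncRNAs 1700120B22Rik, 4930471G03Rik and 1700120K04Rik were 2.39-fold, 2.09-fold and 2.06-fold lower without a wild-type allele. Among coding loci whose values are not given elsewhere, the difference was smallest for 2810408A11Rik (2.39-fold) and largest for 1700001O22Rik (4.17-fold), and 1700031F10Rik, which RefSeq did not match, was 3.93-fold lower.

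Further bright members were 1700009N14Rik (2.35-fold lower without a wild-type allele) and 1700029H14Rik (2.25-fold), both protein-coding. At the threshold, the 3 members just inside were 1700071K01Rik (-1.10 on the log2 scale), 4930471G03Rik (-1.06) and 1700120K04Rik (-1.04). Just outside were 4930407I10Rik (-0.99), Gm5627 (-0.99) and 1700010L04Rik (-0.97). 1700022A21Rik reached -1.11 but had overlapping arrays. A further transcript cluster existed for 2 members. For 1700025G04Rik it was dim, at 25.4 and 27.1 in MIWI -/-, 27.6 and 27.4 in MIWI -/KI, 31.6 and 33.1 in MIWI +/KI and 30.4 and 31.7 in MIWI +/-, a difference of -0.24 against -1.80 on the cluster used. For 4930412O13Rik it was at 0.07, against -1.58 on the cluster used, and its arrays overlapped. Both further clusters were below the array median on every array.

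The comparison of MIWI +/KI with MIWI +/- was not a condition of the rule, since both stand on the same side of it. It asks whether the allele beside the wild-type one bears on these loci. Its arrays did enter the rule's means and overlap condition, so a member could pass mainly through high MIWI +/- arrays. MIWI -/- minus MIWI +/- was -1.09 or lower for every member, while MIWI -/KI minus MIWI +/KI reached up to -0.47. Shares over all genes come from genes that did not have to meet the rule. All 37 members had a lower mean in MIWI +/KI, against 46.0% of all genes. For 36 of the 37 (97.3%) the arrays of the 2 genotypes did not overlap, while 26.0% of all genes lay lower without overlap. The median difference over the members was -0.77 on the log2 scale, from -1.66 to -0.04, against a median of 0.02 over all 19938 genes. In the linear model fitted over all transcript clusters (limma), 3 members fell at adjusted p under 0.05 and 0 rose, while 0.0702% of all genes were called lower (14 genes) and 0.0251% higher (5 genes). At an unadjusted p under 0.05, 33 of the 37 members were lower and 0 higher. Over all 19938 genes, 1107 were lower and 1228 higher (11.7% together).

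The 3 members called were Gm136, 1700008P02Rik and 4933402N03Rik. Gm136 fell by 1.66 on the log2 scale (3.17-fold, SE 0.18, limma adjusted p = 0.0444). 4933402N03Rik fell by 1.497 (2.82-fold, SE 0.17) and 1700008P02Rik by 1.47 (2.77-fold, SE 0.17), both at the same adjusted p. The calls stood near the threshold and ended when any 1 array of MIWI +/-, MIWI +/KI or MIWI -/- was left out, with 0 members called, with the replicate number as a block and with quantile normalization. The count was 8 when dim clusters were left out, and 30 with array weights or with only these 2 genotypes in the fit. The differences themselves moved little, between -1.71 and -1.36 for these 3 loci over the 8 left-out arrays. The number of members lower in MIWI +/KI stayed at 36 or 37 over these left-out arrays, and was 35 of 35 when dim clusters were left out.

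**Figure D2:**
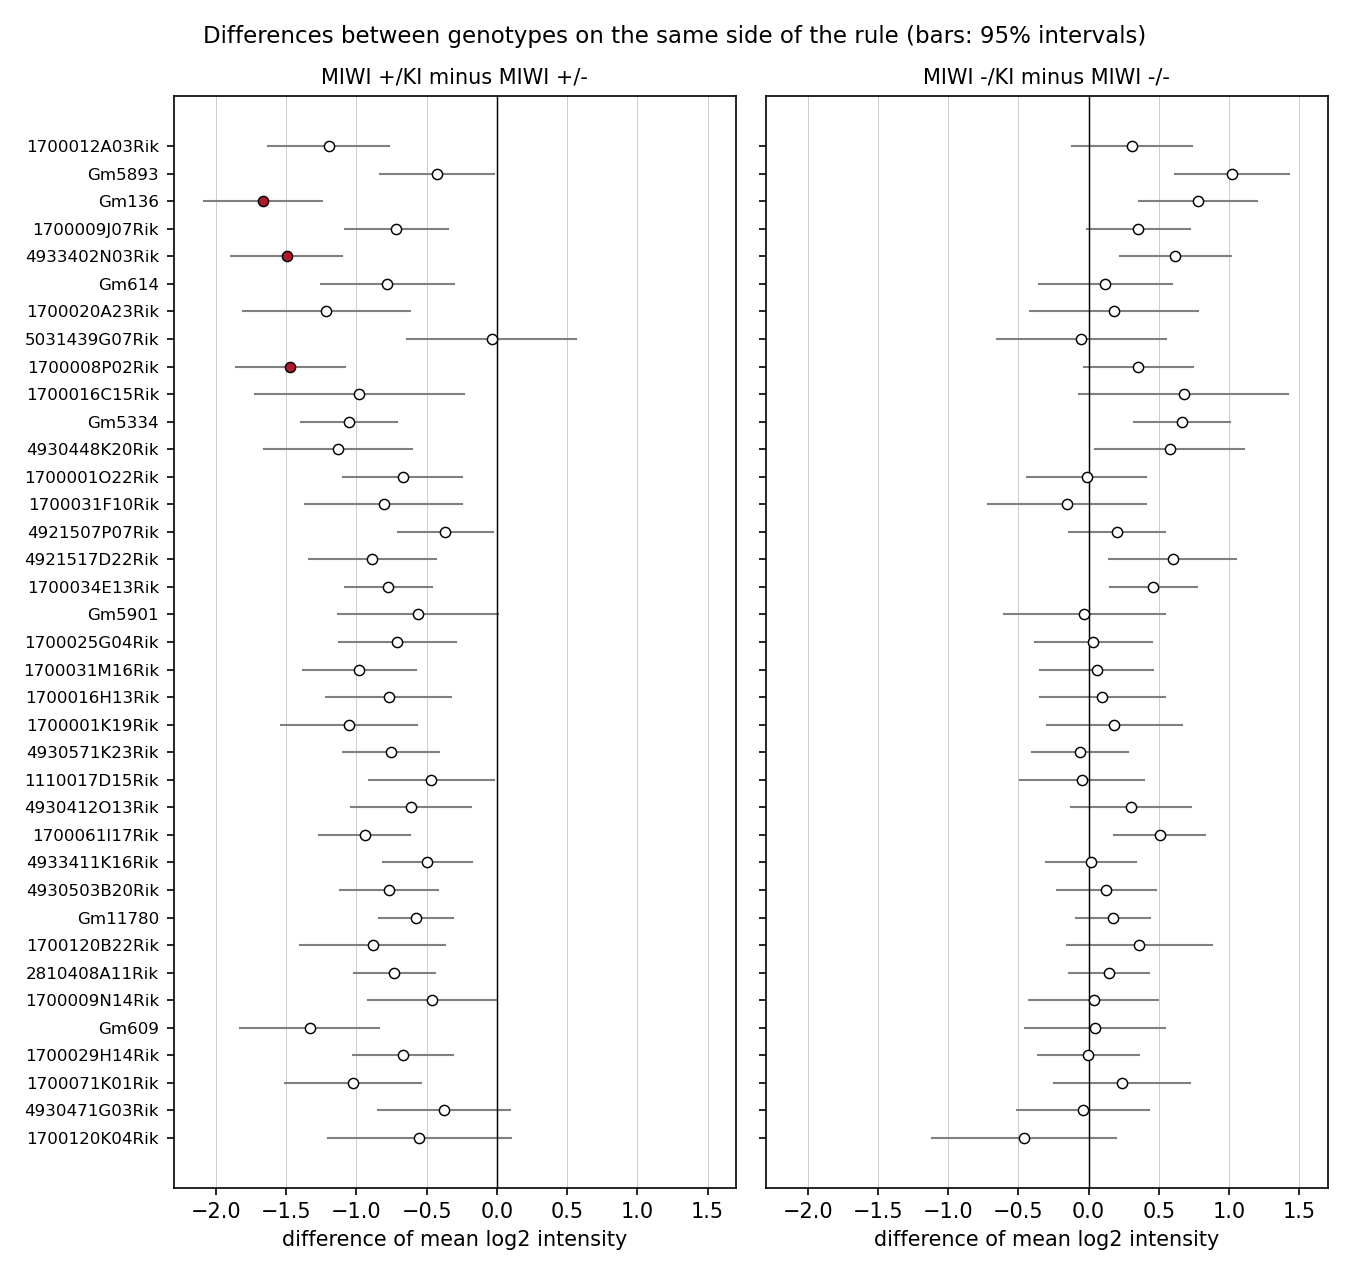
Difference of mean log2 intensity for each of the 37 loci, MIWI +/KI minus MIWI +/- on the left and MIWI -/KI minus MIWI -/- on the right, with 95% intervals from limma and filled points for adjusted p under 0.05. All points of the left panel lie below 0 and 3 are filled, while in the right panel 28 lie above 0 and none is filled.

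The other members missed the threshold. Gm5334, a pseudogene, had 695 and 640 in MIWI +/KI, against 1311 and 1461 in MIWI +/- (log2 difference -1.05, limma adjusted p = 0.0757). The genotypes did not overlap, as in most of these members. 5031439G07Rik showed the smallest difference, -0.04 with a 95% interval from -0.64 to 0.57. On the log2 scale, MIWI +/KI lay a median of 36.6% of the way from MIWI +/- down to the arrays without a wild-type allele, from 1.42% for 5031439G07Rik to 72.4% for Gm609. Gm609, named after its value was seen, was dim, at 37.3 and 38.8 in MIWI +/KI and 78.9 and 116 in MIWI +/-.

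Characterised genes chosen by the same values also lay mostly lower in MIWI +/KI. Of 251 named genes that met the 2 conditions, 208 (82.9%) lay lower in MIWI +/KI without overlap and 9 were called lower, with a median of -0.60. Of the 1188 other loci with Rik or Gm symbols, 286 (24.1%) lay lower without overlap with a median of 0.03. Whether the 37 loci differ from the named genes was not tested. The 20 round spermatid markers had a median of -0.12, and their sums did not overlap between these genotypes. The 18 Sertoli cell markers had a median of -0.08, with 4 lower and 0 higher at an unadjusted p under 0.05 and 0 called by limma. Of 11 blood and macrophage markers, 3 were lower and 0 higher at an unadjusted p under 0.05 and 0 were called by limma. Of these markers 5 (45.5%) lay lower without overlap, against 26.0% of all genes. Their part in the members' difference was not tested.

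**Figure D3:**
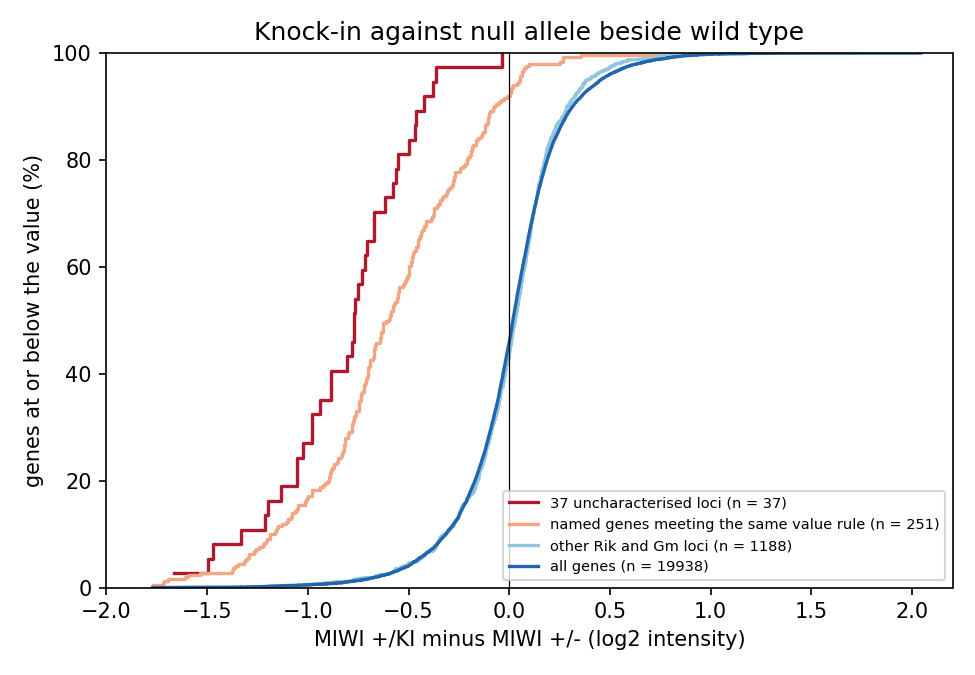
Cumulative share of genes (vertical axis, percent) at or below each log2 difference of MIWI +/KI minus MIWI +/- (horizontal axis), for the 37 uncharacterised loci, 251 named genes that met the same 2 conditions, the other 1188 loci with Rik or Gm symbols and all 19938 genes. The curves of the 37 loci and of the named genes lie left of 0 for most of their course, and those of the other loci and of all genes cross it near their middle.

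MIWI -/KI against MIWI -/- sets a knock-in allele against a null allele where no wild-type allele is present. It was likewise not a condition of the rule, although its arrays entered it. The mean was higher in MIWI -/KI for 28 of the 37 members and lower for 9, while it was lower for 51.9% of all genes. The members' median difference was 0.17 on the log2 scale, against -0.01 over all genes. For 17 members (45.9%) the MIWI -/KI arrays lay above those of MIWI -/- without overlap, against 11.9% of all genes, and for 0 they lay below without overlap, against 10.9%. No member and no gene at all was called by limma (0% of 19938). At an unadjusted p under 0.05, 8 members were higher and 0 lower, beside 481 genes higher and 427 lower (4.55% together). The count of 28 was 21 without MIWI -/KI replicate 1 and 35 without replicate 2.

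The smallest p values were those of the pseudogenes Gm5893 and Gm5334. Gm5893 differed by 1.02 (95% interval 0.62 to 1.43, limma adjusted p = 0.871). Gm5334 had 245 and 250 in MIWI -/KI, against 146 and 166 in MIWI -/- (difference 0.66, limma adjusted p = 0.998). Both had arrays apart, yet neither passed the adjustment over all clusters. The 95% intervals of the 37 members together ran from -1.11 to 1.43, so differences of 2-fold were within the error for some loci. The median absolute difference between the 2 replicates over the members was 0.18 in MIWI -/-, 0.30 in MIWI -/KI, 0.12 in MIWI +/KI and 0.19 in MIWI +/-.

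Across the 4 genotypes, MIWI +/- had the highest mean for all 37 loci, MIWI -/- the lowest for 28 and MIWI -/KI the lowest for 9. MIWI -/- lay below MIWI +/- by a median of 2.22 on the log2 scale (4.67-fold, from 2.13-fold to 30.1-fold), and MIWI -/KI below MIWI +/KI by a median of 1.33 (2.51-fold, from 1.39-fold to 10.6-fold). For 36 of the 37 loci the fall was larger between MIWI -/- and MIWI +/-. The difference between the falls is, by arithmetic, MIWI -/KI against MIWI -/- minus MIWI +/KI against MIWI +/-, and so no separate evidence. It had a median of 0.92 over the members, against -0.03 over all genes, of which 53.7% lay below 0. It reached 2.44 for Gm136 (SE 0.26, limma adjusted p = 0.0711) and 2.11 for 4933402N03Rik (SE 0.24, the same adjusted p). No member and 0% of all genes passed by limma. At an unadjusted p under 0.05, 30 members lay above 0 and 0 below, beside 1261 genes above and 1324 below (13.0% together). Counts of 7 and 5 members passed without MIWI -/- replicate 1 and without MIWI -/KI replicate 1.

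**Figure D4:**
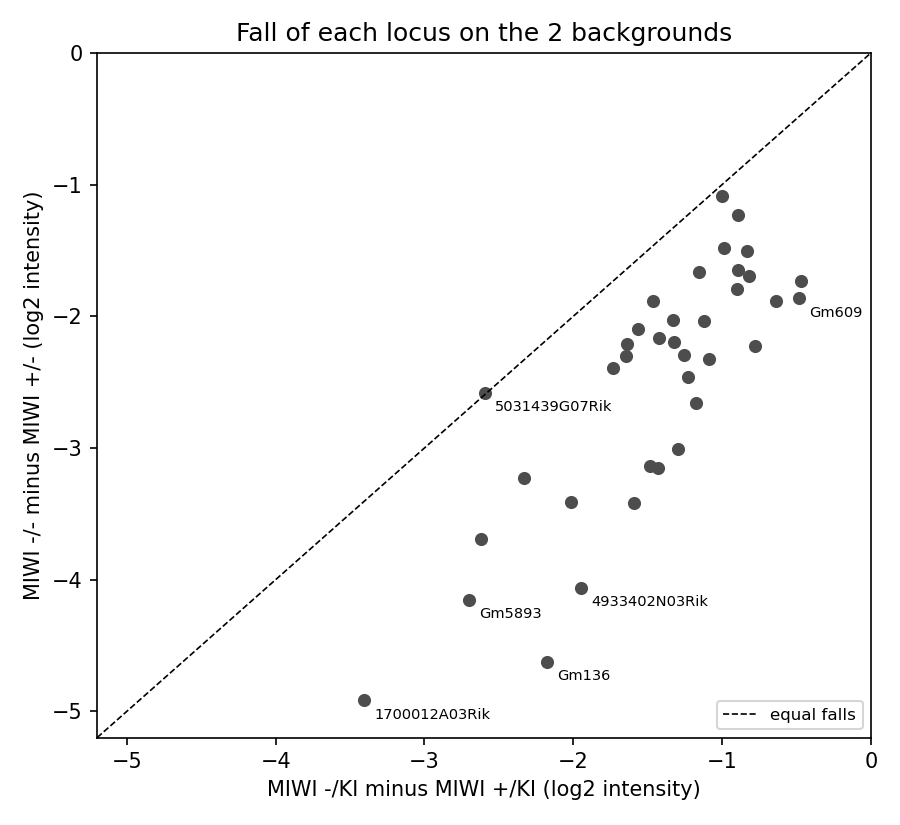
Fall of each of the 37 loci as a difference of mean log2 intensity, MIWI -/KI minus MIWI +/KI on the horizontal axis and MIWI -/- minus MIWI +/- on the vertical axis, with a dashed line where both are equal. All points but that of 5031439G07Rik, which lies on the line, are below it.

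A list of 32 measured characterised spermatid genes that CREM is known or held to drive was set beside the loci, chosen with earlier results of these data known. Without against with a wild-type allele, 21 of them fell and 0 rose by limma (24 and 1 at an unadjusted p under 0.05), with a median of -0.63, while 3.93% of all genes were called lower and 4.33% higher. Those with the smallest p were Spata18 (-1.76, SE 0.09), the protamine gene Prm2 (-2.41, SE 0.13), the transition protein gene Tnp2 (-2.304, SE 0.14) and Prkar2a (-2.56, SE 0.14), a regulatory subunit of protein kinase A. In MIWI +/KI against MIWI +/- the list had a median of -0.44 and 0 calls by limma (19 lower and 1 higher at an unadjusted p under 0.05). In it 25 of 32 genes (78.1%) lay lower without overlap, against 26.0% of all genes. Camk4 was among the 25 (-1.10, limma adjusted p = 0.0757). The list's summed intensity was 47303 and 45283 in MIWI -/-, 50447 and 47672 in MIWI -/KI, 73949 and 71126 in MIWI +/KI and 95991 and 89683 in MIWI +/-. The list shares Gapdhs, Pgk2, Ldhc and Acr with the round spermatid markers. Crem itself differed by 0.06 on the log2 scale without against with a wild-type allele (limma adjusted p = 0.844).

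The 36 members with a RefSeq position had 72 different nearest measured genes on either side, and 0 pairs of members were neighbours. Of these 72 genes, 4 fell (5.56%) and 4 rose (5.56%) without against with a wild-type allele by limma, against 3.93% and 4.33% of all genes, and their median was -0.01. The 4 that rose were 2 without MIWI +/- replicate 2 or either MIWI +/KI replicate. Ceacam10, beside Gm5893, fell by 1.41 on the log2 scale (SE 0.14) at dim intensities of 24.8 to 30.6 without and 60.5 to 100.4 with a wild-type allele. Tmem239, beside 1700020A23Rik, fell by 1.28 (SE 0.18) and Spata31d1a, a gene of a testis-expressed family beside 4921517D22Rik, by 1.28 (SE 0.11). Rasa3, which encodes a Ras GTPase-activating protein, fell by 0.71 beside 1700029H14Rik. In the opposite direction, the lncRNA 4933440M02Rik rose by 1.46 (SE 0.11, limma adjusted p = 0.000208) beside 4930571K23Rik, which had 311 and 313 in MIWI -/-, 328 and 274 in MIWI -/KI, 764 and 745 in MIWI +/KI and 1330 and 1214 in MIWI +/-. Myorg rose by 0.94 beside 1110017D15Rik, Sncaip by 0.63 beside 1700034E13Rik and Adss, an enzyme of purine synthesis, by 0.56 beside 1700016C15Rik.

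Of the 36 members, 15 overlap another annotated gene and 6 a gene measured on the array. These 6 partners were Herc4, Asic2, Nrg2, Hoga1, Gata3 and Fam160a2, and none was called without against with a wild-type allele (log2 differences 0.00, -0.06, -0.13, -0.13, -0.16 and 0.11). Which probes lie in the overlaps was not examined.

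**Figure D5:**
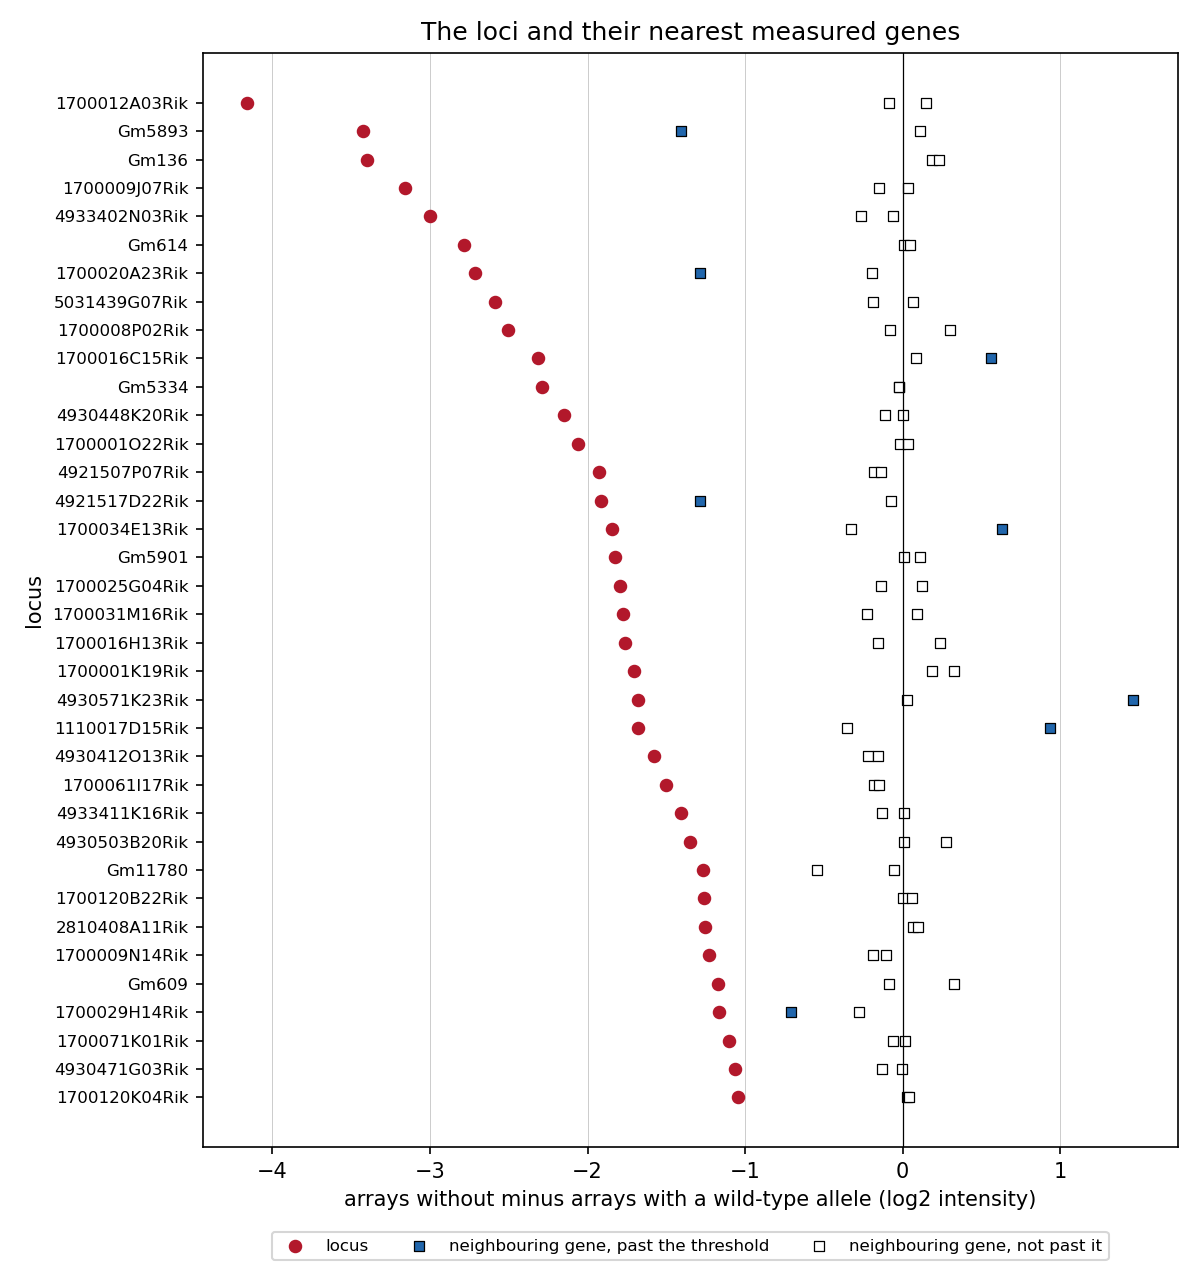
Log2 difference of the 4 arrays without minus the 4 arrays with a wild-type allele, for each locus with a RefSeq position (filled circles) and the nearest measured genes on either side of it (squares, filled where limma's adjusted p is under 0.05). The loci lie between -4.16 and -1.04, and most squares lie near 0, with 4 filled on either side of it.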

How the data were processed

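The authors deposited 1 table of intensities per transcript cluster for 8 arrays, made with RMA (version not stated) per the submitters' processing notes. The intensities are linear, and log2 was taken before any test. Whole-number values more than 100 times their row median occurred in 8 cells, which were set missing. No such cell belonged to any of the 37 loci. Platform annotation gave 1 symbol to 21789 of 35512 clusters, and each of the 19938 genes was read on its cluster with the highest mean. Dim clusters were kept. No genome alignment was used, so cross-hybridisation was not examined. No columns lay outside the 8 arrays.

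Tests used limma 3.58.1 under R 4.3.3, with 1 mean per genotype over the 8 arrays, an intensity trend in the moderated variances, two-sided tests and Benjamini-Hochberg adjustment over all 35512 clusters. The threshold was adjusted p under 0.05, and intervals are 95%. The number of arrays limits the precision. Named loci are the 10 with the largest difference and the 6 brightest others. Also named are those called or with the smallest p in comparisons that were not conditions of the rule. Loci at the threshold or with a further cluster, called neighbours, and up to 4 list genes with the smallest p were added. Neighbours are the nearest measured genes in the order of RefSeq genes. Members and lists were chosen with earlier results of these data known.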

Additional observations from a re-analysis of the deposited data

How the results depend on the processing

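The replicate numbers were shared by all genotypes, but replicate differences of the genotypes correlated with r between -0.269 and 0.262, with 3 of 6 pairs above 0.1, so the numbers were not taken to pair the arrays; a shared day or batch was not tested. With the number as a block, the members called lower in MIWI +/KI against MIWI +/- were 0, as were genes called lower (0) and higher (0), against 14 and 5 without it; quantile normalization gave 0, 0 and 0. Array weights gave 30 members, 863 genes lower and 936 higher, only the groups compared 30, 736 and 738, and leaving out dim clusters 8, 87 and 33. With 1 array left out these counts ran from 0 to 3, 0 to 20 and 0 to 7. In MIWI -/KI against MIWI -/-, genes called higher were 2 with no intensity trend, 3 without dim clusters and 0 to 6 with 1 array left out. For the difference between the falls, leaving out dim clusters gave 9 members, 101 genes higher and 72 lower, and leaving out 1 array 0 to 7, 0 to 81 and 0 to 160. Fewer clusters are tested when dim ones are left out; the cause of the other changes was not tested.

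The rule gave 37 members in every setting that changed only the 8 high cells, 38 when overlap was allowed, 35 without dim clusters and 33 to 43 with 1 array left out; 36 of the 37 remained when a gene's clusters were averaged. Neighbours called higher ran from 2 to 6 (2 without MIWI +/- replicate 2 or either MIWI +/KI replicate) and lower from 3 to 6, and CREM list genes called lower from 16 to 24. Over all alternatives, 233 counts stayed within 1.5 times the main count and 48 moved further. The 233 include cases in which both counts were 0. A change between none and any was taken as a move. The members lower in MIWI +/KI were 36 without MIWI +/- replicate 1 and without MIWI +/KI replicate 2, where 5031439G07Rik was higher, and those higher in MIWI -/KI than in MIWI -/- ranged from 21 to 35 with 1 array left out. With 2 arrays per genotype, calls near the threshold turn on single arrays.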
